A study of Homo sapiens with 4 samples.

Results

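The genes described here are 10 interferon-induced genes: the ADP-ribosyltransferase genes PARP9, PARP10, PARP12 and PARP14, the ubiquitin ligase gene DTX3L, the PML nuclear body genes PML, SP100 and SP110, the antibody receptor gene TRIM21 and the helicase gene HELZ2. They were chosen by symbol, each matched 1 Ensembl ID, and all 10 of 10 were found among the 78932 gene rows of the deposited count table and passed the filter on low counts, which left 18680 genes. RNA-seq was run on RPMI 8226, an established line of human multiple myeloma cells, 72 h after they were transfected with locked nucleic acid (LNA) antisense oligonucleotides, short modified strands that lower the RNA they pair with. Of the 2 groups, one received a control LNA (2 libraries; its dose is not stated separately in the labels) and the other an LNA that targets the long noncoding RNA LINC01432 (2 libraries, 50 nM). Each group received a single oligonucleotide, numbered ASO1 in the control titles and ASO3 in the others, so that loss of LINC01432 and other effects of that oligonucleotide cannot be told apart. Whether libraries of the same group came from different cultures is not in the labels, and the spread behind the p-values is that of these libraries alone and may be technical.

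ADP-ribosyltransferases of the PARP family move ADP-ribose from NAD+ onto proteins and nucleic acids, and several members are switched on by interferons and act against viruses. PARP9 binds the E3 ubiquitin ligase DTX3L, and the genes of this pair lie head to head. PML, a tumour suppressor that is fused to the retinoic acid receptor in acute promyelocytic leukaemia, builds nuclear bodies in which SP100 is a standing component. SP110 belongs to the same family of chromatin readers as SP100. TRIM21 is a cytosolic Fc receptor and ubiquitin ligase that sends antibody-coated particles to the proteasome. HELZ2 is a large helicase first described as a coactivator of nuclear receptors. Interferons reach such genes through the JAK kinases and transcription factors of the STAT and IRF families, which bind a DNA element called the interferon-stimulated response element (ISRE).

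Promoter windows of 300 bases (250 before to 50 after the annotated start, RefSeq, GRCh38.p14) were at hand for 8 of the 10 genes, 12 windows in all. PML and PARP10 were not matched. The ISRE core was searched as GAAA, any 2 bases and GAAA, on both strands and was found in 41.7% of these 12 windows, against 3.57% of all 35116 windows. The genes were chosen as interferon-induced, so a higher share could be foreseen and is not a result of these libraries. The windows below are shown because they hold the match, or, for HELZ2, because the gene with the largest fold change holds none. ISRE core letters are in capitals, and each line runs 5′ to 3′ along the strand of the gene.
DTX3L, plus strand, chr3:122564088-122564387: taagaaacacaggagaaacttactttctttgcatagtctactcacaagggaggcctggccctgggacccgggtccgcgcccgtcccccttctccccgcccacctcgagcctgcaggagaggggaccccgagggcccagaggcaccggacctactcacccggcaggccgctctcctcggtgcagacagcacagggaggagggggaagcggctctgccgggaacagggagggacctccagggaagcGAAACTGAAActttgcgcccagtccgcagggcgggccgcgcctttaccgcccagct
PARP14, plus strand, chr3:122680589-122680888: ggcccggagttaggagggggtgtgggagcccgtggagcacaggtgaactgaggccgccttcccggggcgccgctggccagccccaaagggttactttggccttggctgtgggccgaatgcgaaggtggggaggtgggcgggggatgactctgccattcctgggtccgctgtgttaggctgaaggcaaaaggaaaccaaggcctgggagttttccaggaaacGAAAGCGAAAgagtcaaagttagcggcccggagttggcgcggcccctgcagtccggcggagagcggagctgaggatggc
PARP12, minus strand, chr7:140062902-140063201: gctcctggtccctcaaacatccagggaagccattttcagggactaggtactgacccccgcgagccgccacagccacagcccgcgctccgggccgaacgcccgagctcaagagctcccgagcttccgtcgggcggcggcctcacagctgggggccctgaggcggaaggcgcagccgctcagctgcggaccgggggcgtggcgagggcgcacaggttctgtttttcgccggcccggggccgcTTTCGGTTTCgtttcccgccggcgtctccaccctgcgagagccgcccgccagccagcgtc
TRIM21, minus strand, chr11:4393653-4393952: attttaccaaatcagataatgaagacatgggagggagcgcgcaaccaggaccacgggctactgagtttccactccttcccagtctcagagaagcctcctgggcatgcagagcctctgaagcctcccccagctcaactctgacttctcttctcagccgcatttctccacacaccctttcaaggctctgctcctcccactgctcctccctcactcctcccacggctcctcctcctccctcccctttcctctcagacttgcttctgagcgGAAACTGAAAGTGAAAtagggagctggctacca
HELZ2, minus strand, chr20:63574190-63574489: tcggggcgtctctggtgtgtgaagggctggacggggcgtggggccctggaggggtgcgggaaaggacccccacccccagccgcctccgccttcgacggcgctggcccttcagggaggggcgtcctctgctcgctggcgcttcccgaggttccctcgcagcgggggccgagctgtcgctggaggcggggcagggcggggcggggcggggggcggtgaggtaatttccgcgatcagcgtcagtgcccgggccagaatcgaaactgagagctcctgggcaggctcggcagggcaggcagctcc
The DTX3L window and 1 of the PARP9 windows shared 137 bases, and both held the same ISRE core at 122564332 to 122564341 on chromosome 3. That site is thus counted for both windows. TRIM21 held overlapping cores that began 17 and 23 bases after its start. No core was found in the windows of SP100, SP110 or HELZ2, which says only that these letters are not in these windows. The core of GAS, the interferon-gamma activated site, was searched as TTCNNNGAA, which reads the same on both strands. It was found in the PARP14 window and in 1 of the SP110 windows, and in 7.66% of all windows.

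With LINC01432 LNA, 8 of the 10 genes rose and none fell (adjusted p under 0.05 by the quasi-likelihood test of edgeR, with Benjamini-Hochberg adjustment over all tested genes). At an unadjusted p under 0.05, 10 were higher and 0 lower, and DESeq2 and limma-voom each called 8 higher and 0 lower. Over all tested genes 7.5% rose and 4.37% fell by edgeR after adjustment. DESeq2 called 981 of 12885 genes higher and 641 lower, and limma-voom called 1369 of 18680 higher and 805 lower. For the unadjusted cut the shares of all tested genes are not given here. PARP14, last of the 10 in the edgeR ranking, stood at 3528 of 18680, so at least that many genes passed this cut in either direction. The median log2 fold change of the 10 genes was 0.47, against 0.01 over all tested genes. In all 10 genes both LINC01432 LNA libraries were above both control LNA libraries, which held for 28.2% of tested genes. The genes were picked with earlier results of these data known, so these counts are a description of the set. Without control library 1 the count called higher was 2 (HELZ2 and PARP10), with all 10 log2 fold changes still above 0. The target LINC01432 (chromosome 20, 22054090 to 22074654, plus strand) was counted 598 and 440 times in controls 1 and 2 and 193 and 250 times with its LNA, and fell by 1.02 on the log2 scale (edgeR adjusted p = 0.000228). In bulk RNA, a change in the number of cells of a type and a change in RNA per cell cannot be told apart.

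**Figure D1:**
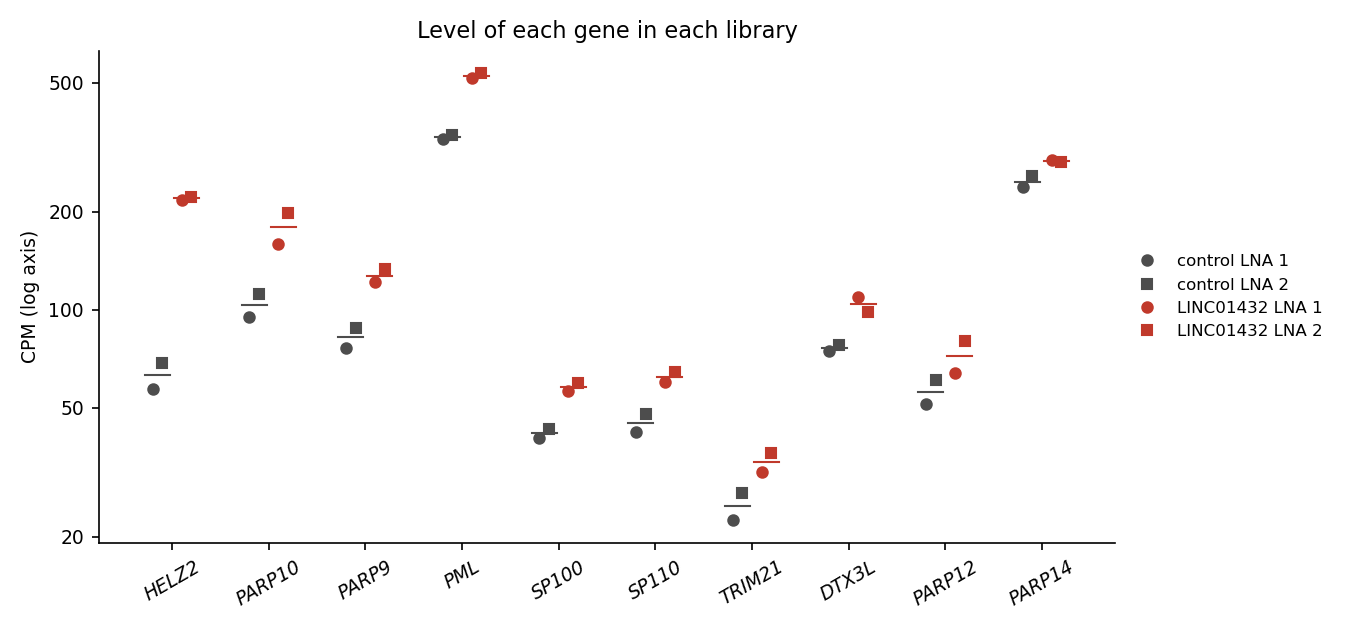
Level of each gene as CPM (gene counts scaled to library size, log axis) in the 4 libraries. Points are libraries, and short lines are the means of the 2 libraries of a group. In each of the 10 genes both LINC01432 LNA libraries lie above both control LNA libraries. Between group means, the relative gap is widest in HELZ2 (62.8 against 220.1 CPM) and narrowest in PARP14 (247.8 against 287.4 CPM). Between the nearest single libraries of the groups, it is narrowest in PARP12 (60.6 against 63.9 CPM).

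HELZ2 (chromosome 20, 63558086 to 63574239, minus strand, GRCh38) rose most. Its level was 56.9 and 68.7 CPM (gene counts scaled to library size with TMM factors) in control libraries 1 and 2, and 217.6 and 222.5 CPM in LINC01432 LNA libraries 1 and 2. The LINC01432 LNA libraries were close to each other and far above both controls. The mean went from 62.8 ± 8.30 to 220.1 ± 3.48 CPM (SD, n = 2), a 3.51-fold rise (log2 fold change 1.81, standard error 0.10, edgeR adjusted p = 2.03e-06). Of all tested genes, HELZ2 had the smallest p but 6 others and stood at the 99.4th percentile of log2 fold change. It stayed called without each library in turn, with log2 fold changes of 1.66 to 1.94. Among the 10 genes its share of the summed CPM was 5.51% and 6.09% in the controls and 13.4% and 12.98% in the LINC01432 LNA libraries. Of the genes with the nearest starts, FNDC11 had at most 0.198 CPM in any library, and GMEB2, which encodes a glucocorticoid modulatory element-binding protein, rose 1.30-fold (edgeR adjusted p = 0.0197), a log2 fold change of 0.38 that was 0.19 after GC correction.

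PARP9 and DTX3L, the ADP-ribosyltransferase and the ubiquitin ligase of 1 complex, both rose. PARP9 (chromosome 3, 122527924 to 122564577, minus strand) was at 76.1 and 88.2 CPM in the controls and at 121.6 and 133.05 CPM in the LINC01432 LNA libraries. This was a 1.55-fold rise (log2 fold change 0.63, standard error 0.09, edgeR adjusted p = 0.00123). DTX3L (chromosome 3, 122564238 to 122575203, plus strand) was at 74.8 and 78.1 CPM in the controls and at 109.7 and 98.6 CPM with LINC01432 LNA. Here LINC01432 LNA library 1 was the higher one, unlike in PARP9. DTX3L rose 1.36-fold (log2 fold change 0.45, standard error 0.08, edgeR adjusted p = 0.00547). The count ratio of PARP9 to DTX3L was 1.02 and 1.13 in the controls and 1.11 and 1.35 in the LINC01432 LNA libraries, so the groups overlapped. Exons of the pair overlap on opposite strands, over 2.4% of the exonic bases of PARP9 and 3.7% of those of DTX3L, and reads there may count for either gene, since the strand setting of the counting is not given in the sources used here. Without control library 1 neither was called (PARP9 log2 fold change 0.51, edgeR adjusted p = 0.0660; DTX3L 0.40, edgeR adjusted p = 0.220). Without control library 2 DTX3L was not called (0.46, edgeR adjusted p = 0.0978). A fit with a lone control takes its spread from the LINC01432 LNA pair. Over all genes, scaled by library totals, that pair varied more (10.5 times the counting variance, against 3.38 times for the control pair). In single genes this differed. The SD was 2.29 CPM in the controls and 7.84 CPM with LINC01432 LNA for DTX3L, but 8.50 and 8.11 CPM for PARP9. The choice of control also moved the fold changes, since control library 1 was the lower control in each of the 10 genes. Their mean log2 CPM, centred on the 4 libraries, was -0.40 in control library 1 and -0.23 in control library 2. The median log2 fold change of the 10 genes was 0.40 without control library 1 and 0.57 without control library 2.

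Other genes lie around and within this chromosome 3 cluster. PARP15, a further ADP-ribosyltransferase gene between the pair and PARP14, was at most 0.0930 CPM in any library and was not tested. KPNA1, an importin gene on the other side of PARP9, was at 47.7 ± 0.502 and 45.2 ± 1.37 CPM (SD, n = 2; edgeR adjusted p = 0.617). HSPBAP1, beyond PARP14, was at 7.14 ± 0.610 and 7.75 ± 0.346 CPM (edgeR adjusted p = 0.660). Neither neighbour passed the test.

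PARP10, PARP12 and PARP14 encode enzymes that add ADP-ribose as a single unit. PARP10 (chromosome 8, 143977153 to 144012772, minus strand) was at 95.0 and 111.5 CPM in the controls and at 159.7 and 199.0 CPM with LINC01432 LNA. The LINC01432 LNA libraries differed from each other more than the controls did, but did not overlap them. PARP10 rose 1.74-fold (log2 fold change 0.80, standard error 0.11, edgeR adjusted p = 0.00107) and stayed called without each library in turn (0.61 to 0.93). Of its exonic bases 5.4% overlap GRINA and 3.3% overlap SPATC1, both on the other strand. GRINA was at 261.4 ± 0.0968 and 264.8 ± 23.5 CPM (SD, n = 2; edgeR adjusted p = 0.925), and SPATC1 was at most 1.26 CPM. PLEC, the plectin gene, which lies beside PARP10 without overlap, rose by 0.47 on the log2 scale (edgeR adjusted p = 0.00775), but was at -0.09 after GC correction.

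PARP12 (chromosome 7, 140023744 to 140063721, minus strand), a zinc finger member of the family, was at 51.4 and 60.6 CPM in the controls and at 63.9 and 80.3 CPM with LINC01432 LNA. Control library 2 and LINC01432 LNA library 1 were nearly level. Its log2 fold change of 0.37 (standard error 0.12) did not pass (edgeR adjusted p = 0.0621). It was 0.51 and called without LINC01432 LNA library 1 (edgeR adjusted p = 2.91e-09), and 0.18 without library 2 (edgeR adjusted p = 0.0614). PARP14 (chromosome 3, 122680618 to 122730840, plus strand), the largest of these enzymes and one with macrodomains that bind ADP-ribose, was at 238.3 and 257.4 CPM in the controls and at 289.5 and 285.3 CPM with LINC01432 LNA. The libraries of each group were close, and the groups stood 1.16-fold apart, a log2 fold change of 0.21 (standard error 0.08) that did not pass (edgeR adjusted p = 0.116). PARP14 was called without LINC01432 LNA library 1 (0.19, edgeR adjusted p = 0.00203) and without library 2 (0.21, edgeR adjusted p = 0.000646), with the spread then taken from the control pair.

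The ratio of PARP10 to PARP12 counts was 1.85 and 1.84 in the controls and 2.50 and 2.48 with LINC01432 LNA. That of PARP14 to PARP9 was 3.13 and 2.92 in the controls and 2.38 and 2.14 with LINC01432 LNA. Neither ratio overlapped between the groups. These counts were not corrected for GC content, which is higher in PARP10 (64.7%) than in PARP12 (49.0%). With the GC correction described below, PARP10 and PARP12 had nearly equal log2 fold changes of 0.39 and 0.40. Those of PARP14 and PARP9 stayed apart at 0.33 and 0.75. An exact permutation test of such a ratio over 2 and 2 libraries cannot go below p = 0.333, and none was run.

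PML and SP100, the nuclear body scaffold and a standing component, rose, as did SP110. PML (chromosome 15, 73994673 to 74047812, plus strand) was at 336.1 and 345.3 CPM in the controls and at 516.1 and 535.3 CPM with LINC01432 LNA. It was the most abundant of the 10 genes in each library and rose 1.54-fold (log2 fold change 0.63, standard error 0.08, edgeR adjusted p = 0.00055). SP100 (chromosome 2, 230415942 to 230544090, plus strand) was at 40.3 and 43.1 CPM in the controls and at 56.1 and 59.7 CPM with LINC01432 LNA. SP110 (chromosome 2, 230167293 to 230225729, minus strand) was at 41.9 and 47.7 CPM in the controls and at 60.0 and 64.3 CPM with LINC01432 LNA. In both, LINC01432 LNA library 2 was the higher of its pair, and so was control library 2. SP100 and SP110 each rose 1.39-fold (log2 fold change 0.47, standard errors 0.08 and 0.09, edgeR adjusted p = 0.00369 and 0.00583). Their count ratio was 0.962 and 0.903 in the controls and 0.935 and 0.928 with LINC01432 LNA, with overlap between the groups. Leaving out control library 1 removed the calls of PML, SP100 and SP110, with log2 fold changes of 0.59 for PML (edgeR adjusted p = 0.0539), 0.41 for SP100 (0.180) and 0.36 for SP110 (0.269).

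HELZ2 stood higher relative to PML with LINC01432 LNA: it had 0.169 and 0.199 counts for each PML count in the controls and 0.422 and 0.416 with LINC01432 LNA. STOML1, a stomatin-like gene whose start lies 51 bases from that of PML on the other strand, was at 15.8 ± 0.0616 and 18.8 ± 2.43 CPM (SD, n = 2) and did not pass (log2 fold change 0.25, edgeR adjusted p = 0.164). Of the exonic bases of SP110, 18.4% overlap the antisense gene AC009950.1, which was at most 0.593 CPM, and 2.5% overlap SP140. Of those of SP100, 4.3% overlap the pseudogene HMGB1P3, which was at most 0.0465 CPM.

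TRIM21 (chromosome 11, 4384897 to 4393696, minus strand) was the gene with the fewest counts of the 10 in each library. It was at 22.5 and 27.4 CPM in the controls and at 31.6 and 36.2 CPM with LINC01432 LNA. The gap between the nearest libraries of the groups was about as wide as the gap within each pair. TRIM21 rose 1.36-fold (log2 fold change 0.45, standard error 0.11, edgeR adjusted p = 0.0227). Without control library 1 its log2 fold change was 0.29 and it was not called (edgeR adjusted p = 0.455).

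**Figure D2:**
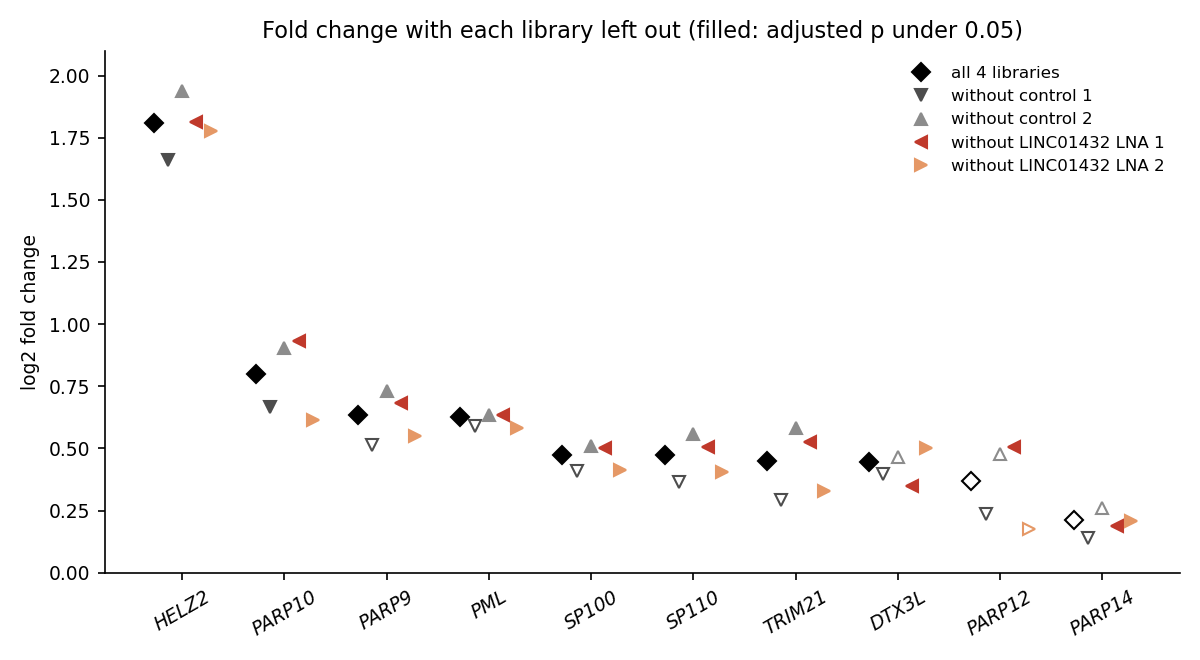
Log2 fold change of each gene (vertical axis) with all 4 libraries and with each library left out. Filled symbols passed at an edgeR adjusted p under 0.05. Each value is above 0, and without control library 1 only HELZ2 and PARP10 passed.

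Levels can be set beside each other only per length of exon. As CPM per kilobase of annotated exon, PML was highest in the controls at 26.9 ± 0.513 (SD, n = 2), followed by PARP14 at 23.6 ± 1.29 and PARP10 at 17.1 ± 1.93. DTX3L at 13.03 ± 0.390 and TRIM21 at 12.9 ± 1.79 did not differ beyond their spread, nor did PARP9 at 9.19 ± 0.951 and PARP12 at 8.91 ± 1.04. SP110 (6.53 ± 0.597), HELZ2 (5.21 ± 0.688) and SP100 (3.30 ± 0.153) were lowest. With LINC01432 LNA, HELZ2 stood at 18.2 ± 0.289, beside DTX3L at 17.7 ± 1.34 and TRIM21 at 17.6 ± 1.68, from which it did not differ beyond their spread. PARP10 at 29.7 ± 4.61 and PARP14 at 27.4 ± 0.280 also lay within their spread of each other, and PML stayed highest at 41.5 ± 1.08. SP100 stayed lowest at 4.59 ± 0.202. These lengths come from GENCODE 29, whose exons may differ from those the authors counted.

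The 10 genes differ in GC content, and in these libraries fold changes moved with it. Ranked by GC content of their exons, the lowest decile of the tested genes had a median of -0.14 (log2 fold change) and the highest one of 0.37. HELZ2 (65.9% GC) and PARP10 (64.7%) lie in the highest decile, while PARP14 (42.5%), SP100 (42.5%) and PARP9 (42.8%) lie in the third. Set against the median of its own decile, HELZ2 was higher by 1.44 on the log2 scale, PARP9 by 0.71, PARP10 by 0.43 and PARP14 by 0.29. With a correction of each library for GC content, all 10 genes were called higher, against 5.7% of all tested genes higher and 4.39% lower. The log2 fold change of PARP10 became 0.39 (standard error 0.08, edgeR adjusted p = 0.0166), and that of HELZ2 1.33 (standard error 0.08, edgeR adjusted p = 1.69e-05). PARP9 moved to 0.75, SP100 to 0.59 and DTX3L to 0.55. PARP14 was called at 0.33 (edgeR adjusted p = 0.0133) and PARP12 at 0.40 (edgeR adjusted p = 0.0498). After correction PARP10 thus stood below PARP9 and PML (0.58) rather than above them.

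**Figure D3:**
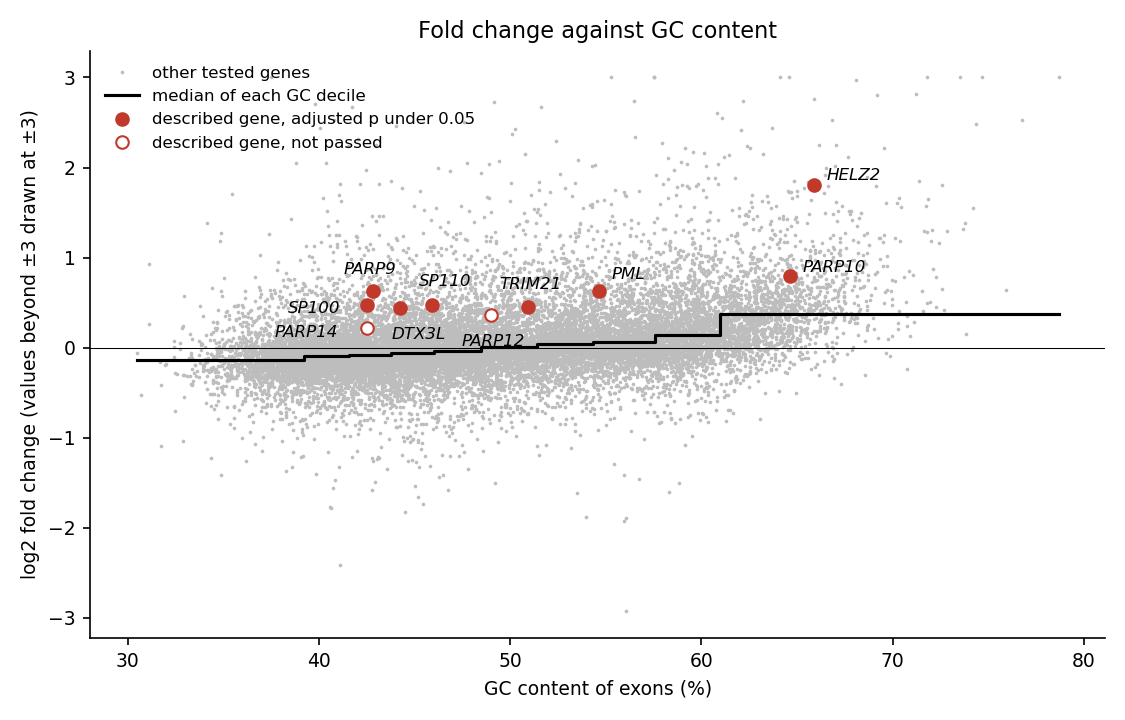
Log2 fold change (vertical axis) against GC content of the exons in percent (horizontal axis) for all tested genes with a GC value. The stepped line is the median of each GC decile, and red symbols are the 10 genes. The line climbs from -0.14 to 0.37, and all 10 genes lie above it.

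**Figure D4:**
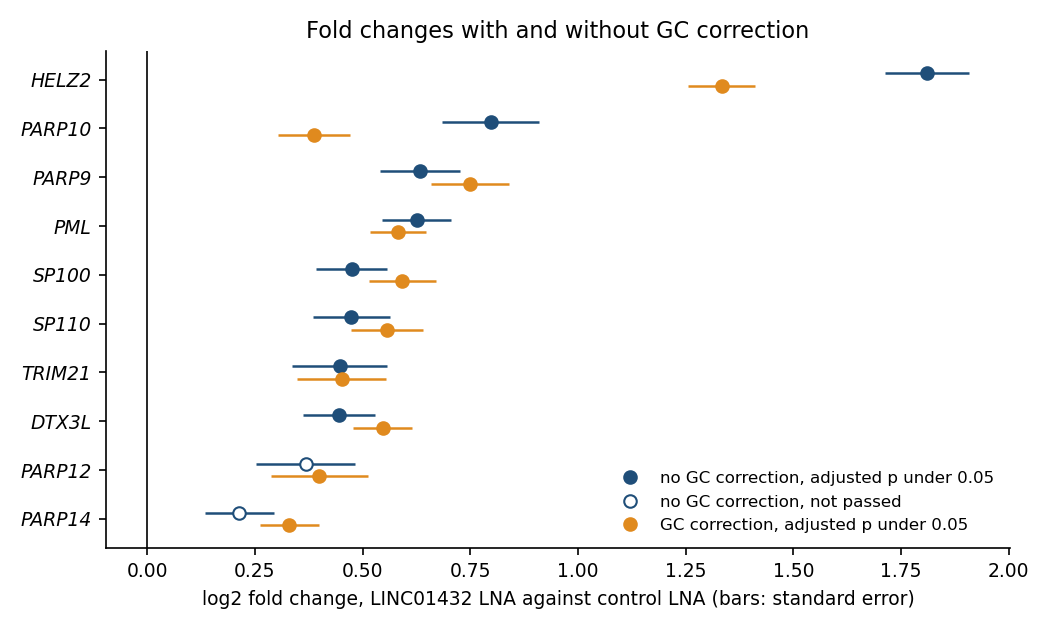
Log2 fold change of each gene without (blue) and with (orange) correction for GC content; bars are standard errors and open symbols did not pass at an edgeR adjusted p under 0.05. HELZ2 and PARP10 moved down most, from 1.81 to 1.33 and from 0.80 to 0.39, and PML moved from 0.63 to 0.58. PARP9, SP100, SP110, DTX3L, PARP12 and PARP14 moved up, and TRIM21 stayed at 0.45.

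The relatives and partners of the 10 genes were taken from 9 lists of 95 genes, of which 88 were tested. Of these, 17 rose (19.3%) and 5 fell, where 7.5% of all tested genes rose and 4.37% fell. The median over the lists was -0.03 on the log2 scale. Without control library 1 the calls of 11 of these 22 genes were lost, and without control library 2 those of 8. GC correction removed the calls of 6 (PARP4, MACROD1, ATRX, BLM, HELZ and UPF1) and added others, among them DTX1 as lower and TRIM25 and STAT2 as higher.

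Of 12 other ADP-ribosyltransferase genes tested, 1 rose and 2 fell (median 0.07). The share that rose, 8.33%, was near the 7.5% of all tested genes. PARP16, an endoplasmic reticulum member that acts on stress sensors, rose 1.52-fold from 11.9 and 11.9 CPM in the controls to 18.0 and 18.1 CPM (edgeR adjusted p = 0.00235). TNKS2, a tankyrase that builds poly-ADP-ribose chains, fell by 0.48 on the log2 scale (edgeR adjusted p = 0.00460), and PARP4, the vault enzyme, fell by 0.28 (edgeR adjusted p = 0.0425). TNKS2 was not called without control library 2 (-0.46, edgeR adjusted p = 0.0617), and PARP4 not without either control (-0.25 and -0.33). PARP1, the main enzyme of the DNA damage response, had a log2 fold change of -0.12 (edgeR adjusted p = 0.466). ZC3HAV1, the zinc finger antiviral protein and PARP family member, had 0.09 (edgeR adjusted p = 0.535).

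Of 10 genes that remove or read ADP-ribose, 2 rose and 0 fell (median -0.05; 3 higher and 0 lower at an unadjusted edgeR p under 0.05, and 2 and 0 by DESeq2). ADPRH, which cleaves ADP-ribose from arginine, rose 1.94-fold from low levels of 2.95 and 3.01 CPM to 4.65 and 6.80 CPM (edgeR adjusted p = 0.0107). MACROD1, a macrodomain hydrolase, rose 1.35-fold (edgeR adjusted p = 0.0231), but its log2 fold change of 0.43 was 0.01 after GC correction, and 0.31 and not called without control library 1. Of the 4 other Deltex ligases, DTX2 rose (log2 fold change 0.45, edgeR adjusted p = 0.0119) and 0 fell (0 also at an unadjusted p and by DESeq2). DTX1 had a log2 fold change of -0.11 (edgeR adjusted p = 0.705), but was called lower with GC correction (-0.51, edgeR adjusted p = 0.0300). DTX2 was not called without either control library (0.39 and 0.48).

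Of 25 PML body partners and SUMO enzymes, 2 rose and 2 fell (median -0.08). Here too the share that rose, 8%, was near the 7.5% of all tested genes. ISG20, an interferon-induced exonuclease found in these bodies, rose 2.11-fold from 72.1 and 84.3 to 137.8 and 191.0 CPM (edgeR adjusted p = 0.00050). HIRA, a histone chaperone, rose (log2 fold change 0.65, edgeR adjusted p = 0.00792), but 66.5% of its exonic bases overlap other genes and it was not called without control library 1 (0.50). The helicase BLM fell by 0.37 and the chromatin remodeller ATRX by 0.29 on the log2 scale (edgeR adjusted p = 0.0197 and 0.0398). BLM was at -0.24 and ATRX at -0.09 after GC correction, neither called, and neither was called without either control library (BLM -0.39 and -0.37, ATRX -0.34 and -0.27). DAXX, the partner of ATRX in these bodies, had a log2 fold change of -0.07, and the modifiers SUMO2 and SUMO3 had -0.17 and -0.06. None of these 3 passed (edgeR adjusted p = 0.195 to 0.674).

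The other SP100 family genes were SP140, which rose from 16.6 and 17.4 to 20.4 and 26.0 CPM (log2 fold change 0.46, edgeR adjusted p = 0.0282), and SP140L, which lies between SP110 and SP100 and had -0.13 (edgeR adjusted p = 0.568). SP140 was not called without control library 1 (0.40), control library 2 (0.47) or LINC01432 LNA library 2 (0.25). Of 8 other interferon-linked TRIM genes tested, 3 rose and 0 fell (median 0.26; 4 higher and 0 lower at an unadjusted edgeR p under 0.05 and by DESeq2). TRIM22, an antiviral ubiquitin ligase, rose 3.52-fold from 5.21 and 7.16 to 19.1 and 24.1 CPM (edgeR adjusted p = 4.82e-05). TRIM56 and TRIM69 rose by 0.59 and 0.53 on the log2 scale (edgeR adjusted p = 0.000945 and 0.00267), but lost their calls once control library 1 was left out (0.52 and 0.44).

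Among 8 UPF1-like helicases, the family of HELZ2, 3 rose and 1 fell (median 0.01). ZNFX1, an interferon-induced RNA sensor, rose 1.74-fold from 115.3 and 111.3 to 204.7 and 190.5 CPM (edgeR adjusted p = 0.000120). MOV10, an inhibitor of retroelements, rose 1.58-fold (edgeR adjusted p = 0.00487), and UPF1, the factor of nonsense-mediated decay, rose 1.27-fold (edgeR adjusted p = 0.0140). HELZ, the closest relative by name, fell by 0.38 on the log2 scale (edgeR adjusted p = 0.0179), opposite to HELZ2. UPF1 and HELZ were not called without either control library (UPF1 0.31 and 0.36, HELZ -0.38 and -0.41) or with GC correction (0.19 and -0.23). Of 7 nuclear receptor genes listed for coactivation by HELZ2, PPARG and THRB did not pass the filter on low counts. Of the 5 tested, 0 rose and 0 fell by edgeR (1 higher and 1 lower at an unadjusted p under 0.05, and 0 and 0 by DESeq2). PPARA, the best known of them, was at 20.8 and 20.5 CPM in the controls and 19.0 and 16.4 CPM with LINC01432 LNA (edgeR adjusted p = 0.190).

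Of 14 genes of interferon receptor signalling, 4 rose and 0 fell (median 0.13; 5 higher and 2 lower at an unadjusted edgeR p under 0.05, and 4 and 0 by DESeq2). Among those that rose, USP18 and SOCS1, feedback inhibitors of the pathway, rose 2.78-fold and 3.71-fold, and the transcription factor IRF1 rose by 0.58 on the log2 scale (edgeR adjusted p = 6.86e-05, 2.48e-05 and 0.000703). With GC correction the log2 fold change of SOCS1 went from 1.89 to 1.23, below that of USP18 at 1.47. The receptor genes IFNAR1, IFNAR2, IFNGR1 and IFNGR2 had log2 fold changes of -0.27, -0.32, -0.01 and 0.05, and none passed (edgeR adjusted p = 0.0650 to 0.959). Other genes overlap 22.0% of the exonic bases of IRF1, 83.2% of those of IFNAR2 and 10.7% of those of TRIM22.

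**Figure D5:**
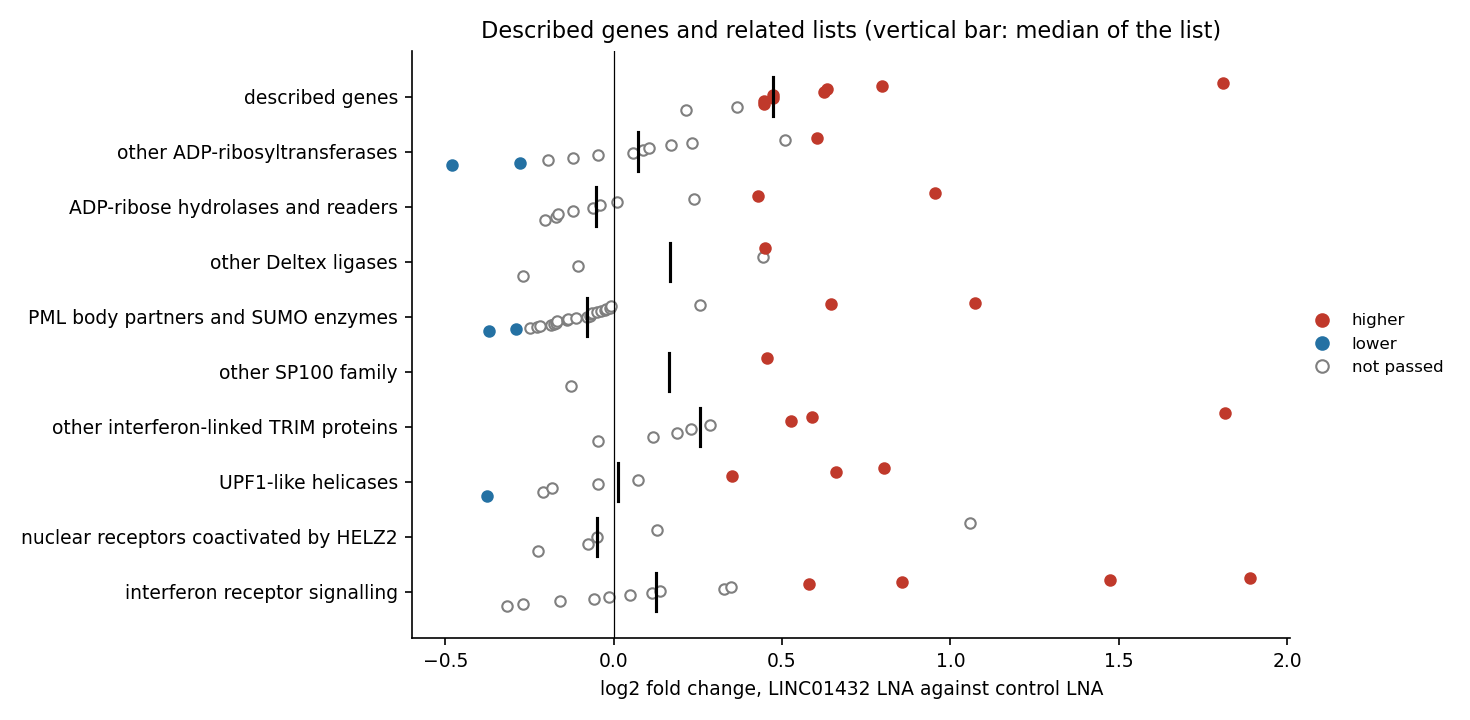
Log2 fold change (horizontal axis) of the 10 described genes and of the tested genes of the 9 related lists. Each point is a gene, red if it rose, blue if it fell and open if it did not pass, and vertical bars are medians. The described genes have a median of 0.47, and the lists have medians between -0.08 and 0.26.

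Among the genes whose pattern over the 4 libraries was nearest to the mean pattern of the 10 were NUMBL, TNS1, CDT1 and SOX8, by Euclidean distance of centred log2 CPM (0.012 to 0.053). Among the 10 themselves PARP9 was nearest to their mean at 0.033 and HELZ2 farthest at 1.19. NUMBL, a relative of the cell fate regulator Numb, was at 13.02 and 14.6 CPM in the controls and at 20.9 and 22.4 CPM with LINC01432 LNA. Over only 4 libraries such nearness describes the fold change and little else. CDT1 and SOX8 lie in the highest GC decile, and GC correction took their log2 fold changes from 0.66 to 0.24 and from 0.61 to 0.19. NUMBL went from 0.65 to 0.52 and TNS1 from 0.61 to 0.54. The median of the 10 genes went from 0.47 to 0.55.

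The libraries held 20873393 to 29161298 gene counts, and the 97 rows of spike-in RNAs and transgenes held at most 11 counts a library. Counts of no pair of libraries agreed within counting noise (3.38 to 29.8 times the counting variance). Of 12 plasma cell and myeloma markers 11 were tested. In the control mean SDC1 was at 449.2 and IRF4 at 777.4 CPM, but FCRL5 at 0.429 and the untested CD27 at 0.0985 CPM. By edgeR 1 rose (CD38, log2 fold change 0.72) and 3 fell (TNFRSF17 -0.53, XBP1 -0.35 and GPRC5D -0.53). The summed level of the 12 was 3074 to 3260 CPM in the controls and 2661 to 3019 CPM with LINC01432 LNA. The 10 T and NK cell markers summed to 1.02 to 1.096 CPM in the controls and 1.16 to 1.502 CPM with LINC01432 LNA, with GZMA at 0 in each library. The 9 myeloid and plasmacytoid dendritic cell markers summed to 5.04 to 5.12 and 5.95 to 8.02 CPM, with LYZ and S100A8 at 0. The 9 epithelial and fibroblast markers, of which EPCAM and KRT18 gave most, summed to 117.0 to 119.9 and 103.3 to 103.6 CPM. COL1A1 rose within this last list, and the part of these differences in the results was not tested.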

How the data were processed

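RNA-seq counts of 4 libraries were used, grouped by title into control LNA and LINC01432 LNA. The values deposited by the authors are raw counts for each gene. Bcl2fastq, Salmon 1.10.0, featureCounts 2.0.8 (Subread), STAR 2.7.11b and GRCh38 are named, without roles, per the submitters' processing notes. Neither the annotation release nor the strand setting is given in the sources used here. The labels name poly(A) selection in one place and removal of ribosomal RNA in another. All columns belonged to the 4 libraries, which held 20873393 to 29161298 gene counts.

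Of 78932 Ensembl IDs, 61481 were matched to a symbol. Positions, exon lengths, GC content and overlaps came from GENCODE 29 on GRCh38 (57356 matched).

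In R 4.3.3, edgeR 4.0.16 was run with TMM, a filterByExpr filter (at least 10 counts, and 15 in total) and a design holding just the group; standard errors came from the F statistic. Spike-in and transgene rows were left out. Alternatives were the DESeq2 1.42.0 Wald test, limma-voom (limma 3.58.1), other scalings, filters and thresholds, a block on the replicate number, omission of single libraries, and subtraction of each library's lowess trend (span 0.3) of log2 CPM on GC content. The fitting was tested on simulated counts of 18680 genes, of which 200 were changed 2-fold. It recovered 70% of these 200 in the right direction, and it also called 22 unchanged genes. The members and lists were chosen with earlier results of these data known. Named genes are LINC01432, the members, up to 4 called genes of each list with the smallest p, the 5 genes of at least 5 CPM nearest in pattern, and genes that overlap or neighbour a member; PARP1, ZC3HAV1, DAXX, SUMO2, SUMO3, DTX1, TRIM25, STAT2, PPARA, the receptor genes and the markers were named after their values were seen. Some genes that this rule names are not reported here. Figures were drawn with matplotlib 3.10.9.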

Additional observations from a re-analysis of the deposited data

How the results depend on the processing

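Of all tested genes 2218 changed, and leaving out a library in turn gave 766 to 5228. The 8 higher members became 2 to 10, the 17 higher list genes 10 to 25 and the 5 lower list genes 0 to 21. A group left with 1 library takes its spread from the other pair. No member was called lower under any setting, and all 10 log2 fold changes were above 0 under each. An adjusted p under 0.01 left 1000 genes in all and 1 lower list gene; a fold of at least 1.5 left 954 genes, 4 members, 11 higher and 0 lower list genes. GC correction left 3 lower list genes. HELZ2 and PARP10 were called under each alternative fit.

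The replicate number as a block called 3862 genes, 9 members and 8 lower list genes, and with GC correction 3722 genes, 10 members and 8 lower list genes. The libraries share only a number: deviations of same-numbered libraries from their group means correlated at 0.16 across genes. LINC01432 stayed called as lower under every alternative fit, at -1.13 to -0.93. The members that did not pass, PARP12 and PARP14, were 1.29-fold and 1.16-fold apart between the groups.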
